A study of Mus musculus with 11 samples.

Results

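The genes described here encode cytokines with which dendritic cells direct T cell responses, together with the receptor chain that presents one of them. They are 10 of the 19938 genes measured: Il12b, Il12a, Il23a, Il27, Il15, Il15ra, Il6, Il1b, Tnf and Il10. They were taken as a named list, and each was represented by its probe set with 1 gene symbol and the highest mean over all arrays; each of the 10 had exactly 1 such probe set. Expression was measured on 11 Affymetrix mouse gene arrays. The cells were classical dendritic cells (cDCs) that had been sorted from spleen, with no stimulation stated. All values are log2 expression values normalised by RMA.

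The groups were CD172a+ cDCs labelled as Zeb2-deficient (4 arrays; Zeb2 fl/fl with the CD11c-Cre transgene), control CD24+ cDCs (3 arrays; Zeb2 fl/fl) and control CD172a+ cDCs (4 arrays; Zeb2 fl/fl), all on the C57BL/6 background. The floxed alleles were thus shared by all groups, while Cre, which acts in cells that express CD11c, was carried by the labelled as Zeb2-deficient mice alone, so an effect of the transgene cannot be told apart from one of the deletion. The mice's age is not stated in the labels. Digestion with collagenase B and DNase I preceded the sort. The labels do not state that replicates were separate animals; p-values therefore reflect the spread between these arrays, which may be technical alone. RMA shrinks differences close to background, and precision is limited by how many arrays there were.

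IL-12 is a pair of the subunits encoded by Il12a and Il12b and steers CD4+ T cells to the Th1 fate. IL-23 joins the Il12b subunit to that of Il23a and sustains Th17 cells, and IL-27 joins the products of Il27 and Ebi3. IL-15 is held on the surface of the producing cell by the IL-15 receptor alpha chain (Il15ra) and presented to memory CD8+ T cells and NK cells. IL-6, IL-1 beta and TNF are inflammatory cytokines, of which IL-6 and IL-1 beta favour Th17 cells, while IL-10 restrains T cell and myeloid responses. In mouse spleen, CD24+ cDCs (cDC1) are known for IL-12 and for cross-presentation to CD8+ T cells, and CD172a+ cDCs (cDC2) for priming CD4+ T cells.

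The promoters of 4 members are shown because their genes separated the cell types or the arrays in the results that follow: Il12b, Il15ra, Il6 and Tnf. Each line gives the 250 bases before the gene's start from RefSeq, assembly GRCm38.p6, read 5′ to 3′ along the gene's strand; for Il15ra the second of 2 annotated starts is shown. Capitals mark matches, on either strand, to the NF-kappaB consensus (kappaB), the AP-1 motif TGANTCA, the C/EBP motif TTGCNNAA or the interferon regulatory factor motif (GAAA, then NN, then GAAA).
Il12b, chr11:44399813-44400062, plus strand: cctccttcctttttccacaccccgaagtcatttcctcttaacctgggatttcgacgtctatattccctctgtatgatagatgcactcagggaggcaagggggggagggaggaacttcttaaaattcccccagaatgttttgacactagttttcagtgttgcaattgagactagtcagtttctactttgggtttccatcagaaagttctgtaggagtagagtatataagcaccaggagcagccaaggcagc
Il15ra, chr2:11705462-11705711, plus strand: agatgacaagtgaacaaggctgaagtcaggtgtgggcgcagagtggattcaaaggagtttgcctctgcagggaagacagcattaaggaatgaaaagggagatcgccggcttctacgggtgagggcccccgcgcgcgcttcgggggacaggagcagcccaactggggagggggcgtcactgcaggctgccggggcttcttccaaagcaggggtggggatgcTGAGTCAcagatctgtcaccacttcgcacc
Il6, chr5:30012864-30013113, plus strand: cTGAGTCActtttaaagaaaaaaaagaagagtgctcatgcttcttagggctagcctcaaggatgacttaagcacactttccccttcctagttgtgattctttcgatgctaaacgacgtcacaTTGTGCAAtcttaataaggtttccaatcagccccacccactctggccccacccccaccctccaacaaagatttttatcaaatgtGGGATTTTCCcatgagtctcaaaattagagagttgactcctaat
Tnf, chr17:35202008-35202257, minus strand: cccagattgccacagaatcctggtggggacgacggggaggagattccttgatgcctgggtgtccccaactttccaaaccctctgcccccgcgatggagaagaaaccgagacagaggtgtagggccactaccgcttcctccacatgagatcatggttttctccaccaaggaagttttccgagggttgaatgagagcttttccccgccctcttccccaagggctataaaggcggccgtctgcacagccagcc

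The Il6 window held a kappaB match 44 to 35 bases before the start, a C/EBP match on the minus strand 128 to 121 bases before it and an AP-1 match 249 to 243 bases before it. The Il15ra window held an AP-1 match 30 to 24 bases before the start. The window of the other Il15ra start, which is not shown, held no match to any of the 4 motifs. The Il12b and Tnf windows held no match to any of the 4 motifs in these letters. RefSeq windows were at hand for 6 members with 8 windows, those of Il12a and Il1b included. Among these, kappaB was found in 1 of 8 windows, AP-1 in 2, C/EBP in 1 and the interferon regulatory factor motif in 0. Of all 32851 promoter windows of the same length, 7.25% held a kappaB match, 6.75% an AP-1 match, 9.56% a C/EBP match and 2.98% an interferon regulatory factor match. No motifs overlapped in the windows shown. A match is a description of the sequence and not of binding.

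Markers of the sorted cells followed their labels. Of 12 cDC1 markers, 11 rose and 0 fell in control CD24+ against control CD172a+ cDCs, and of 12 cDC2 markers 2 rose and 8 fell. Mean log2 levels of the cDC1 list were 6.45 to 6.56 in CD172a+ cDCs labelled as Zeb2-deficient, 9.82 to 10.38 in control CD24+ and 6.29 to 6.59 in control CD172a+ cDCs. The targeted gene went against its label. Zeb2, a zinc-finger repressor, had log2 values of 8.52, 8.32, 9.07 and 9.24 in CD172a+ cDCs labelled as Zeb2-deficient, 5.19, 5.08 and 5.52 in control CD24+ cDCs, and 8.23, 8.23, 8.26 and 8.61 in control CD172a+ cDCs. The labelled as Zeb2-deficient arrays were thus not lower than the control CD172a+ arrays (difference 0.45, exact two-sided permutation p = 0.171 over 70 assignments, the smallest possible being 0.0286). That permutation takes no account of the 2 array sets described next. Within each set both arrays labelled as Zeb2-deficient lay above both control CD172a+ arrays, with mean differences of 0.19 in the first and 0.72 in the second. With the set as a block the Zeb2 difference was 0.45 (SE 0.15) and did not pass (adjusted p = 0.338). Whether the probe set lies in the floxed part was not tested, so every direction below rests on the label.

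The 11 arrays also fell into 2 sets that cross the groups. The sets were read from the first principal component of deviations from the group means, which held 62.1% of their variance, and the labels name no batch. The first set held 5 arrays (replicates 1 and 2 of both CD172a+ groups and replicate 1 of control CD24+ cDCs) and the second held the other 6. The calls are those of the fit with group alone. For the members, the fit with the set as a block is given where it changed a call, and for the pathway lists as counts. The sets were drawn from the same values that were tested, so p-values of the block fit may be too small.

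**Figure D1:**
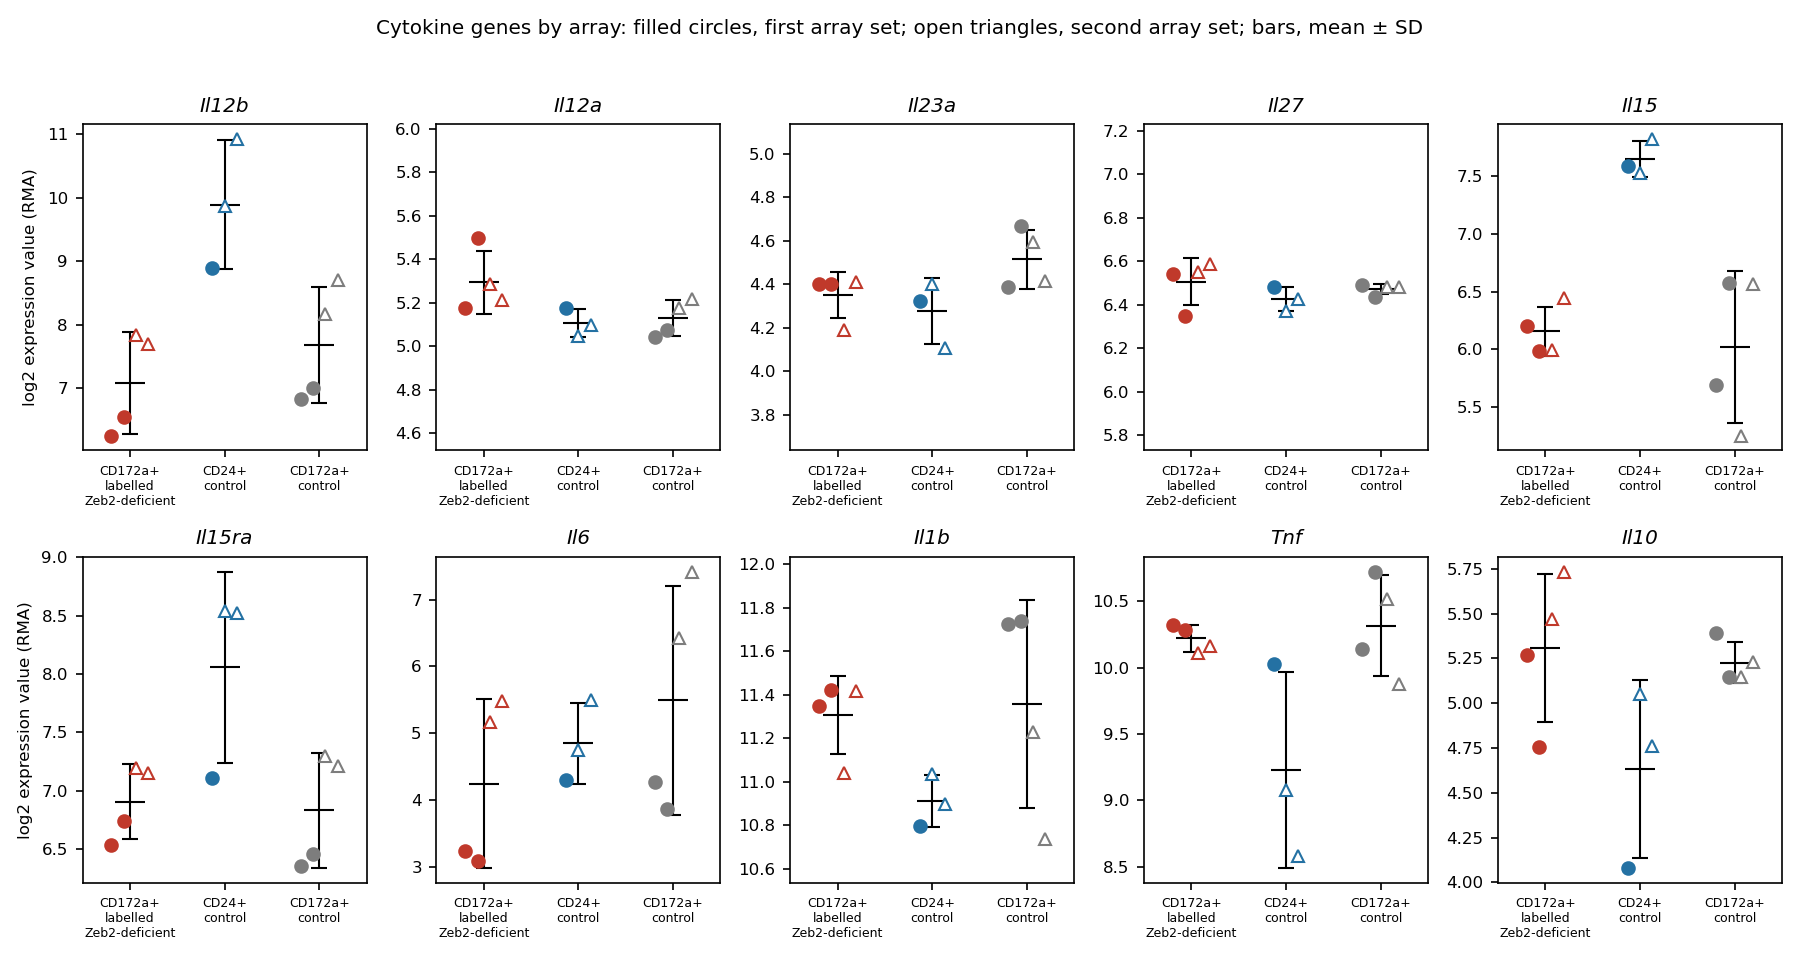
Log2 expression value of each cytokine gene on every array, by group, with CD172a+ cDCs labelled as Zeb2-deficient left, control CD24+ cDCs in the middle and control CD172a+ cDCs right; bars give mean ± SD; filled circles are first-set and open triangles second-set arrays. Il12b and Il15 are higher on every control CD24+ array than on any CD172a+ array, and the values of Il6 split by array set.

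Il15 rose in control CD24+ against control CD172a+ cDCs, and no other member passed the test there. Il15 and Il12b fell in CD172a+ cDCs labelled as Zeb2-deficient against control CD24+ cDCs. In CD172a+ cDCs labelled as Zeb2-deficient against control CD172a+ cDCs, 0 of 10 members passed in either direction with limma and group alone. In that fit 0 members had an unadjusted p below 0.05, beside 3.88% of all genes. With the set as a block 0 members passed either. The unadjusted limma p of that block fit was, however, 0.0029 for Il6 and 0.0097 for Il12b (adjusted p = 0.226 and 0.345). The comparisons share arrays, so their values are set side by side and not counted as separate evidence.

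The background differed widely between comparisons. Of all genes, 0.0502% passed between CD172a+ cDCs labelled as Zeb2-deficient and control CD172a+ cDCs, and 0.145% when the array set was a block. A block for the replicate number raised the number of genes that passed there to 26, against 10 without it, and no member was among them. Between control CD24+ and control CD172a+ cDCs 6.41% passed, 3.25% higher and 3.16% lower, beside 1 of 10 members higher and 0 lower. With the set as a block 15.4% passed, 8.55% higher and 6.9% lower, beside 3 members higher and 2 lower. Between CD172a+ cDCs labelled as Zeb2-deficient and control CD24+ cDCs 7.17% passed, 3.25% higher and 3.92% lower, beside 0 members higher and 2 lower. With the set as a block 18.3% passed, 7.52% higher and 10.7% lower, beside 2 members higher and 3 lower.

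Il12b, which encodes the subunit shared by IL-12 and IL-23, had the largest log2 difference between subsets among the members. Its log2 values were 6.26, 6.55, 7.84 and 7.69 in CD172a+ cDCs labelled as Zeb2-deficient, 8.89, 9.86 and 10.92 in control CD24+ cDCs, and 6.83, 7.01, 8.17 and 8.71 in control CD172a+ cDCs. Every CD24+ array lay above every CD172a+ array of either genotype. The mean was 7.08 ± 0.80 (SD, n = 4) in CD172a+ cDCs labelled as Zeb2-deficient, 9.89 ± 1.01 (n = 3) in control CD24+ and 7.68 ± 0.91 (n = 4) in control CD172a+ cDCs. Against control CD24+ cDCs, Il12b fell in CD172a+ cDCs labelled as Zeb2-deficient by 2.81 on the log2 scale, 6.99-fold (SE 0.59, adjusted p = 0.0145). Without control CD24+ replicate 2 or 3 that adjusted p was 0.0530 or 0.0720.

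Between control CD24+ and control CD172a+ cDCs the Il12b difference was 2.21 (SE 0.59) and did not pass (adjusted p = 0.0516). With the array set as a block it was 1.97 and passed (adjusted p = 3.61e-05), and within the first and second sets it was 1.97 and 1.95. With group alone it passed in 2 of 11 fits that left out 1 array. These left out control CD24+ replicate 1 (2.71, adjusted p = 0.0306) or control CD172a+ replicate 4 (2.56, adjusted p = 0.0324). Its smallest size over the 11 fits was 1.70, and the largest adjusted p was 0.217. The difference between CD172a+ cDCs labelled as Zeb2-deficient and control CD172a+ cDCs was -0.59, with a 95% interval of -1.80 to 0.62. It did not pass (adjusted p = 0.998, and 0.345 with the set as a block). Within each set, nevertheless, both arrays labelled as Zeb2-deficient lay below both control CD172a+ arrays, with mean differences of -0.51 in the first and -0.68 in the second.

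The partners of the Il12b subunit did not pass in any comparison. Il12a, which encodes the other IL-12 subunit, had log2 values of 5.18, 5.50, 5.29 and 5.21 in CD172a+ cDCs labelled as Zeb2-deficient, 5.18, 5.05 and 5.10 in control CD24+ cDCs and 5.04, 5.08, 5.18 and 5.22 in control CD172a+ cDCs. Il23a, which completes IL-23, had 4.40, 4.40, 4.19 and 4.41 in CD172a+ cDCs labelled as Zeb2-deficient, 4.32, 4.40 and 4.11 in control CD24+ cDCs and 4.39, 4.67, 4.59 and 4.42 in control CD172a+ cDCs. The groups overlapped for both genes. Both had low levels: their group means lay at percentile 40.6 to 44.1 of all genes for Il12a and 22.3 to 26.3 for Il23a. These means were below the all-gene medians of 5.49 to 5.54. Similar values so low do not show that the groups were alike, since RMA shrinks differences close to background. Between control CD24+ and control CD172a+ cDCs the differences were -0.02 (95% interval -0.24 to 0.20) for Il12a and -0.24 (-0.48 to 0.0038) for Il23a. For Il12a that difference was 0.12 in the first set but -0.12 in the second, and for Il23a it was -0.20 and -0.25. No call of either gene changed with the set as a block.

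Il27, which encodes the cytokine-like subunit of IL-27, varied least over the arrays, between 6.35 and 6.59 on the log2 scale. Its means were 6.50 ± 0.11 (SD, n = 4) in CD172a+ cDCs labelled as Zeb2-deficient, 6.43 ± 0.06 (n = 3) in control CD24+ and 6.47 ± 0.02 (n = 4) in control CD172a+ cDCs. The largest of its 3 differences was 0.08, between CD172a+ cDCs labelled as Zeb2-deficient and control CD24+ cDCs, where the first set gave -0.040 and the second 0.17. Ebi3, the partner of Il27, differed by 0.25 between control CD24+ and control CD172a+ cDCs and did not pass (adjusted p = 0.901, and 0.0133 with the set as a block).

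Il15, which encodes a survival cytokine for memory CD8+ T cells and NK cells, was the member that rose in control CD24+ cDCs. Its log2 values were 6.20, 5.99, 6.00 and 6.44 in CD172a+ cDCs labelled as Zeb2-deficient, 7.59, 7.53 and 7.82 in control CD24+ cDCs, and 5.69, 6.57, 5.25 and 6.57 in control CD172a+ cDCs. All 3 CD24+ arrays lay above all 8 CD172a+ arrays. Against control CD172a+ cDCs, Il15 rose in control CD24+ cDCs by 1.63 on the log2 scale, 3.09-fold (SE 0.29, adjusted p = 0.00576). Against control CD24+ cDCs, it fell by 1.49 in CD172a+ cDCs labelled as Zeb2-deficient, 2.81-fold (SE 0.29, adjusted p = 0.00926).

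The subset difference in Il15 was similar in both array sets, at 1.46 in the first set and 1.77 in the other. Fitted on the first set alone, with 1 array of control CD24+ cDCs, its adjusted p was 0.0973. The difference between CD172a+ cDCs labelled as Zeb2-deficient and control CD24+ cDCs was -1.50 within the first set and -1.45 within the second, and did not pass in either set alone (adjusted p = 0.0827 and 0.0819). The difference in Il15 between CD172a+ cDCs labelled as Zeb2-deficient and control CD172a+ cDCs was 0.14 (95% interval -0.46 to 0.73). Bulk arrays measure RNA of a sorted population, so fewer cells of a type and less RNA per cell cannot be told apart.

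Il15ra, the chain that presents IL-15, passed between subsets with the array set as a block but not with group alone. It had log2 values of 6.53, 6.74, 7.19 and 7.15 in CD172a+ cDCs labelled as Zeb2-deficient, 7.11, 8.54 and 8.52 in control CD24+ cDCs, and 6.35, 6.46, 7.30 and 7.21 in control CD172a+ cDCs. Control CD24+ replicate 1 lay within the range of all CD172a+ arrays, but above all 4 CD172a+ arrays of its own set. The difference between control CD24+ and control CD172a+ cDCs was 1.23 (SE 0.36) and did not pass (adjusted p = 0.0814). It was 1.08 with the set as a block and passed there (adjusted p = 0.000309), and 0.70 and 1.27 within the first and second sets. With group alone it passed in 1 of 11 fits that left out 1 array, without control CD24+ replicate 1 (1.70, adjusted p = 0.00652). The largest adjusted p over these fits was 0.303. Between CD172a+ cDCs labelled as Zeb2-deficient and control CD24+ cDCs the difference was -1.15 (adjusted p = 0.0961, and 0.000489 with the set as a block). Without control CD24+ replicate 1 it was -1.63 (adjusted p = 0.00814), the 1 of 11 such fits that passed. The largest adjusted p there was 0.327.

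Il6, Il1b and Tnf encode inflammatory cytokines. Il6 had the widest spread of the members within both CD172a+ groups. Its log2 values were 3.24, 3.09, 5.18 and 5.49 in CD172a+ cDCs labelled as Zeb2-deficient, 4.30, 4.75 and 5.50 in control CD24+ cDCs, and 4.27, 3.86, 6.42 and 7.42 in control CD172a+ cDCs. The groups overlapped, while each group's second-set arrays lay above its first-set arrays. The difference between CD172a+ cDCs labelled as Zeb2-deficient and control CD172a+ cDCs was -1.24 (SE 0.81, 95% interval -3.04 to 0.55, adjusted p = 0.998). With the set as a block it kept its size, with an SE of 0.33 and an adjusted p of 0.226. Both labelled as Zeb2-deficient arrays lay below both control CD172a+ arrays in each set, with mean differences of -0.90 in the first and -1.59 in the second. All first-set Il6 values were below the lowest array median of 5.45, so the order in that set is one of low values.

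An ordering of that kind within both sets was found for 2 of 10 members, Il12b and Il6, and for 4.58% of all genes; 0 members were ordered the other way. Both differences moved with single arrays: without control CD172a+ replicate 4, Il12b was at -0.25 and Il6 at -0.60. The largest sizes were -0.88 for Il12b without control CD172a+ replicate 1 and -1.79 for Il6 without control CD172a+ replicate 2. Between control CD24+ and control CD172a+ cDCs the Il6 difference was 0.23 in the first set but -1.79 in the second, and it did not pass over all arrays (-0.64, adjusted p = 0.859). The subset order of Il6 thus turned with the array set.

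Il1b, whose product is cut to its active form by caspase-1, had the log2 values 11.35, 11.42, 11.04 and 11.42 in CD172a+ cDCs labelled as Zeb2-deficient, 10.79, 11.03 and 10.90 in control CD24+ cDCs, and 11.73, 11.74, 11.23 and 10.74 in control CD172a+ cDCs. All labelled as Zeb2-deficient arrays lay above all CD24+ arrays by a narrow margin, and the control groups overlapped. No Il1b difference passed, at 0.40 between CD172a+ cDCs labelled as Zeb2-deficient and control CD24+ cDCs (adjusted p = 0.398) and -0.45 between control CD24+ and control CD172a+ cDCs (adjusted p = 0.368). The control difference was -0.94 in the first set but -0.02 in the second. Without control CD172a+ replicate 4, the lowest of its group, it was -0.66 and passed (adjusted p = 0.0432). That was the 1 of 11 fits leaving out 1 array that passed, with adjusted p up to 0.623.

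Tnf had log2 values of 10.32, 10.29, 10.11 and 10.16 in CD172a+ cDCs labelled as Zeb2-deficient, 10.03, 9.08 and 8.58 in control CD24+ cDCs, and 10.14, 10.72, 10.52 and 9.87 in control CD172a+ cDCs. Control CD24+ replicates 2 and 3 were lower than every CD172a+ array, and replicate 1 was within the control CD172a+ range. The difference between control CD24+ and control CD172a+ cDCs was -1.09 (SE 0.30, adjusted p = 0.0570), and -1.01 with the set as a block (adjusted p = 0.0110). Within the sets it was -0.40 and -1.37. With group alone it passed in 2 of 11 fits that left out 1 array. It was -1.49 without control CD24+ replicate 1 (adjusted p = 0.00311) and -1.23 without control CD172a+ replicate 4 (adjusted p = 0.0452). The smallest size over these fits was -0.76, and the largest adjusted p was 0.222. The block call held in 11 of 11 such fits (adjusted p up to 0.0494) but was lost with only these groups in the fit. The difference between CD172a+ cDCs labelled as Zeb2-deficient and control CD24+ cDCs was 0.99 (adjusted p = 0.0782, and 0.0168 with the set as a block). Of 11 fits with group alone that left out 1 array, it passed in 1, without control CD24+ replicate 1 (1.39, adjusted p = 0.00453). Its smallest size over these fits was 0.67, and the largest adjusted p was 0.289. Here the block call held in 8 of 11 such fits (adjusted p up to 0.0760).

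Il10, which encodes the regulatory cytokine of the list, had log2 values of 5.27, 4.76, 5.47 and 5.73 in CD172a+ cDCs labelled as Zeb2-deficient, 4.08, 5.05 and 4.76 in control CD24+ cDCs, and 5.39, 5.15, 5.15 and 5.23 in control CD172a+ cDCs. The group means lay at percentile 30.1 to 44.4 of all genes, below the all-gene medians of 5.49 to 5.54. RMA shrinks differences close to background, so the order of the groups is one of low values. All control CD24+ arrays lay below all control CD172a+ arrays. The difference between them was -0.60 (SE 0.25) and did not pass (adjusted p = 0.250), and -0.66 with the set as a block (adjusted p = 0.0348). Within the sets it was -1.19 and -0.28, and without control CD24+ replicate 1 it was -0.32. The block call was lost with only these groups in the fit, and without control CD24+ replicate 1 or 3 or control CD172a+ replicate 1 or 2 (adjusted p up to 0.225). Between CD172a+ cDCs labelled as Zeb2-deficient and control CD24+ cDCs it was 0.68 (adjusted p = 0.157, and 0.0173 with the set as a block), and 0.40 without control CD24+ replicate 1. Here the block call was lost without control CD24+ replicate 1 or 3 or the replicate 4 labelled as Zeb2-deficient (adjusted p up to 0.127).

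**Figure D2:**
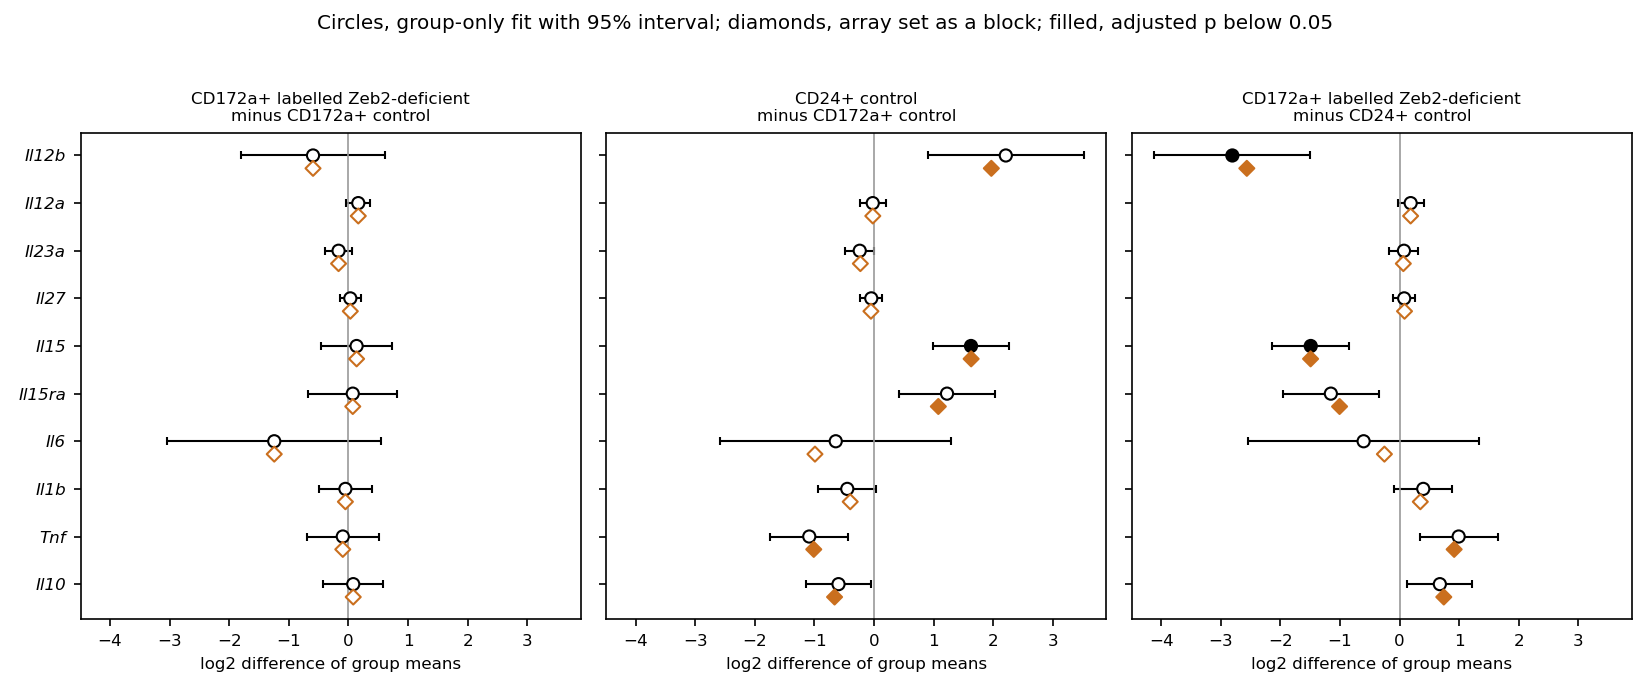
Log2 differences of the cytokine genes in the 3 comparisons, first-named group minus second, with 95% intervals from the limma fit with group alone. The intervals of Il12b and Il15 against control CD24+ cDCs exclude 0, as do those of Il15ra, Tnf and Il10, which did not pass after adjustment, and every interval between CD172a+ cDCs labelled as Zeb2-deficient and control CD172a+ cDCs includes 0.

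Over the 10 members the median difference between CD172a+ cDCs labelled as Zeb2-deficient and control CD172a+ cDCs was -0.0093, against 0.0056 over all genes, with 5 members positive and 5 negative. None of the members had groups that did not overlap, beside 2.1% of all genes. The intervals differed in width: that of Il27 ran from -0.14 to 0.20 and that of Il12a from -0.04 to 0.37, while those of Il12b and Il6 allowed differences of more than 1 on the log2 scale. Between control CD24+ and control CD172a+ cDCs the median was -0.14, against -0.02 over all genes, and the groups of 3 members (Il12b, Il15 and Il10) did not overlap, beside 14.6% of all genes. Between CD172a+ cDCs labelled as Zeb2-deficient and control CD24+ cDCs, those of 4 members (Il12b, Il15, Il1b and Tnf) did not overlap, beside 17.9% of all genes.

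Other cell types were measured beside the genotype comparison. Mean log2 levels of 8 plasmacytoid dendritic cell markers were 6.30 to 6.42 in CD172a+ cDCs labelled as Zeb2-deficient and 5.89 to 6.13 in control CD172a+ cDCs. Those of 9 B cell markers were 5.82 to 6.25 in CD172a+ cDCs labelled as Zeb2-deficient and 5.38 to 5.73 in control CD172a+ cDCs, and those of 11 monocyte markers 6.87 to 6.95 in CD172a+ cDCs labelled as Zeb2-deficient and 7.38 to 7.48 in control CD172a+ cDCs. Single markers went both ways: 5, 5 and 3 of these lists were higher in CD172a+ cDCs labelled as Zeb2-deficient, and 3, 4 and 8 were lower. In each of these lists 1 marker passed, higher for the first 2 lists and lower for monocytes, beside 0.0502% of all genes. With the set as a block 1, 2 and 2 passed in the same directions, beside 0.145% of all genes. Beside the subset comparison, 1 of 14 splenic macrophage markers fell and 0 rose in control CD24+ against control CD172a+ cDCs, and 5 fell with the set as a block; their levels are given with the array sets. Of 11 monocyte markers 3 fell, with means of 6.63 to 6.81 in control CD24+ and 7.38 to 7.48 in control CD172a+ cDCs. Of 9 B cell markers 1 rose and 1 fell, with means of 5.03 to 5.23 in control CD24+ and 5.38 to 5.73 in control CD172a+ cDCs. Of 10 NK cell markers 0 rose and 2 fell, with means of 5.08 to 5.26 in control CD24+ and 5.39 to 5.68 in control CD172a+ cDCs. These subset counts with group alone stand beside 3.25% of all genes higher and 3.16% lower. With the set as a block 2 monocyte markers rose and 4 fell, and 1 B cell marker rose and 4 fell. Of the NK cell markers 1 rose and 2 fell there, beside 8.55% of all genes higher and 6.9% lower in that fit. The part of these cell types in the cytokine values was not tested.

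Several members also differed between the array sets. Second-set arrays lay above first-set arrays in all 3 groups for 3 of 10 members, Il12b, Il15ra and Il6, beside 11.7% of all genes. For Il12b the second set exceeded the first by 1.36 in CD172a+ cDCs labelled as Zeb2-deficient, 1.50 in control CD24+ and 1.52 in control CD172a+ cDCs. For Il6 it did so by 2.17 in CD172a+ cDCs labelled as Zeb2-deficient, 0.83 in control CD24+ and 2.86 in control CD172a+ cDCs. For Il15ra it did so by 0.54 in CD172a+ cDCs labelled as Zeb2-deficient, 1.42 in control CD24+ and 0.85 in control CD172a+ cDCs. The set differences of Il15 were small, at 0.13 in CD172a+ cDCs labelled as Zeb2-deficient, 0.08 in control CD24+ and -0.22 in control CD172a+ cDCs. Those of Tnf were -0.17 in CD172a+ cDCs labelled as Zeb2-deficient, -1.20 in control CD24+ and -0.23 in control CD172a+ cDCs.

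Immediate-early genes, macrophage markers and markers of the sorted cells differed between the sets too. The mean log2 level of 23 immediate-early genes, which digestion can induce, was 9.43 in the second set and 10.13 in the first in CD172a+ cDCs labelled as Zeb2-deficient, 9.23 and 9.65 in control CD24+ cDCs, and 9.38 and 10.18 in control CD172a+ cDCs. Of the 23 genes, 19, 16 and 19 were lower in the second set in these groups. Between subsets, 22 were lower and 1 higher in control CD24+ than in control CD172a+ cDCs (median -0.36). With group alone 0 passed, while 6 fell and 0 rose with the set as a block, beside 6.9% and 8.55% of all genes. In CD172a+ cDCs labelled as Zeb2-deficient against control CD24+ cDCs, 20 were higher and 3 lower (median 0.33). There 0 passed with group alone, and in the block fit 8 rose and 0 fell, beside 7.52% and 10.7% of all genes. The 14 splenic macrophage markers averaged 6.89 in the second set and 5.88 in the first in CD172a+ cDCs labelled as Zeb2-deficient, 5.88 and 5.43 in control CD24+ cDCs, and 6.98 and 5.90 in control CD172a+ cDCs. Of the 14 markers, 12, 10 and 12 were higher in the second set in these groups. The 12 cDC2 markers averaged 7.70 in the second set and 8.39 in the first in CD172a+ cDCs labelled as Zeb2-deficient, 5.97 and 5.76 in control CD24+ cDCs, and 7.68 and 8.34 in control CD172a+ cDCs, with 10, 4 and 11 markers lower in the second set. The 12 cDC1 markers averaged 9.87 in the second set and 10.38 in the first in control CD24+ cDCs. Their part in the cytokine differences between sets or between groups was not tested.

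**Figure D3:**
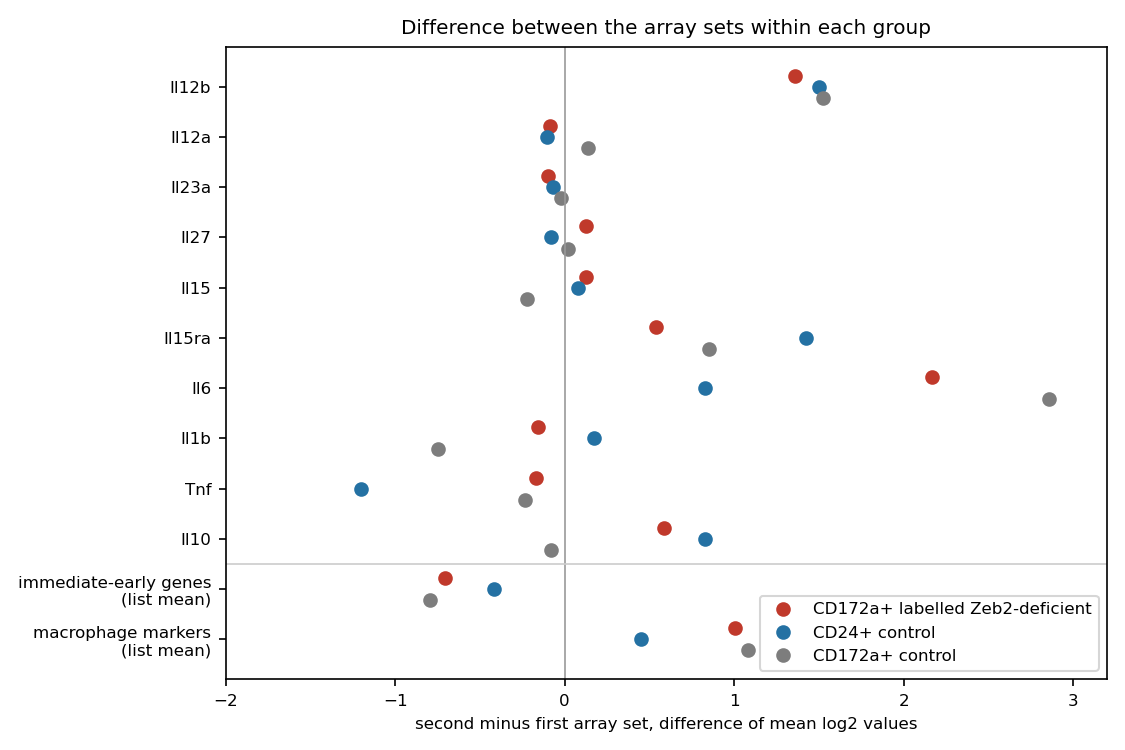
Second-set minus first-set log2 differences of the cytokine genes and the means of the immediate-early and macrophage lists within each group, with CD172a+ cDCs labelled as Zeb2-deficient first, control CD24+ cDCs next and control CD172a+ cDCs last. Il12b, Il15ra and Il6 lie above 0 in all groups, and Tnf lies below 0 in all of them.

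Genes of the cytokine pathways were counted in 4 lists. Of 16 measured partner subunits and receptors of these cytokines, 1 rose and 3 fell in control CD24+ against control CD172a+ cDCs (median -0.32), beside 3.25% and 3.16% of all genes. With the set as a block 2 rose and 7 fell, beside 8.55% and 6.9% of all genes. Il12rb2, a signalling chain of the IL-12 receptor, averaged 7.83 ± 0.07 (SD, n = 3) in control CD24+ and 8.68 ± 0.26 (n = 4) in control CD172a+ cDCs and fell by 0.86 (adjusted p = 0.00225). Il1r2, the IL-1 decoy receptor, fell by 3.08 (adjusted p = 0.00514). Il1rn, the IL-1 receptor antagonist, fell by 1.72 (adjusted p = 0.0135, and 0.0585 without control CD24+ replicate 1). Il1rap, the IL-1 receptor accessory protein, rose by 1.00 (adjusted p = 0.0475), a call that was lost when any of 10 of the 11 arrays was left out (adjusted p up to 0.161).

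Of 28 other cytokines, 1 rose and 5 fell in control CD24+ against control CD172a+ cDCs (median -0.18), and 1 rose and 8 fell with the set as a block. Lif, an IL-6 family cytokine, rose by 0.78 (adjusted p = 0.0117, and 0.0630 without control CD24+ replicate 3). Osm, of the same family, fell by 0.82 (adjusted p = 0.0122, and 0.0503 without control CD24+ replicate 1). The TNF family ligands Tnfsf8 and Tnfsf14, which costimulate T cells, fell by 1.26 (adjusted p = 0.00295) and 1.21 (adjusted p = 0.00907). Of 35 transcription factors and feedback regulators, 2 rose and 6 fell (median -0.27), and 4 rose and 13 fell with the set as a block. This list includes the targeted gene Zeb2, which fell by 3.07 (adjusted p = 6.42e-06). Irf8, a factor of cDC1 development, rose by 3.07 (adjusted p = 0.00146), and Irf4, a factor of cDC2 development, fell by 3.21 (adjusted p = 0.000386). Tnfaip3, a feedback inhibitor of NF-kappaB, fell by 0.90 (adjusted p = 0.0226), and lost its call without any 1 of the 3 control CD24+ arrays or control CD172a+ replicates 1 to 3 (adjusted p up to 0.0942).

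Of 14 genes for cytokine processing and release, 0 rose and 2 fell in control CD24+ against control CD172a+ cDCs (median -0.20), and 0 rose and 3 fell with the set as a block. Nlrc4, an inflammasome sensor, averaged 4.54 ± 0.27 (SD, n = 3) in control CD24+ and 6.85 ± 0.45 (n = 4) in control CD172a+ cDCs (adjusted p = 0.000322). Casp1, the protease that matures IL-1 beta, averaged 6.97 ± 0.29 in control CD24+ and 8.24 ± 0.32 in control CD172a+ cDCs (adjusted p = 0.000949). In CD172a+ cDCs labelled as Zeb2-deficient against control CD172a+ cDCs, 0 genes of the 4 lists passed, and 0, 2, 2 and 0 had an unadjusted p below 0.05, beside 3.88% of all genes. Their medians were -0.02, -0.02, 0.0045 and 0.04.

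In CD172a+ cDCs labelled as Zeb2-deficient against control CD24+ cDCs, 4 receptor genes rose and 0 fell, 4 other cytokines rose and 1 fell, 7 regulators rose and 2 fell, and 2 processing genes rose and 0 fell, beside 3.25% of all genes higher and 3.92% lower. With the set as a block these counts were 7 and 1, 7 and 1, 15 and 4, and 6 and 2, beside 7.52% of all genes higher and 10.7% lower. Zeb2, counted among the regulators, rose by 3.52 (adjusted p = 2.58e-06). Il1r2 rose by 2.98 (adjusted p = 0.00583), Irf4 by 3.55 (adjusted p = 0.000178) and Nlrc4 by 2.68 (adjusted p = 0.000109). Irf8 fell by 3.01 (adjusted p = 0.00158) and Lif fell by 0.91 (adjusted p = 0.00414). Casp1 rose by 1.40 (adjusted p = 0.000464), Tnfsf14 by 1.32 (adjusted p = 0.00484), Tnfsf8 by 1.21 (adjusted p = 0.00373) and Tnfaip3 by 1.03 (adjusted p = 0.00980). Flt3l, the growth factor of dendritic cells, rose by 0.84 (adjusted p = 0.0145), a call that was lost without control CD24+ replicate 2 or 3 (adjusted p up to 0.0623). The receptor genes Il6st, Il12rb2 and Il1rn rose by 0.91, 0.59 and 1.55 (adjusted p = 0.0186, 0.0206 and 0.0220), and each lost its call when certain single arrays were left out (adjusted p up to 0.0892, 0.0856 and 0.0887). For all 3 these included control CD24+ replicates 2 and 3 and the replicate 4 labelled as Zeb2-deficient. They also included the replicate 1 so labelled for Il6st and Il12rb2, its replicate 2 for Il12rb2, and its replicate 3 and control CD24+ replicate 1 for Il1rn.

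**Figure D4:**
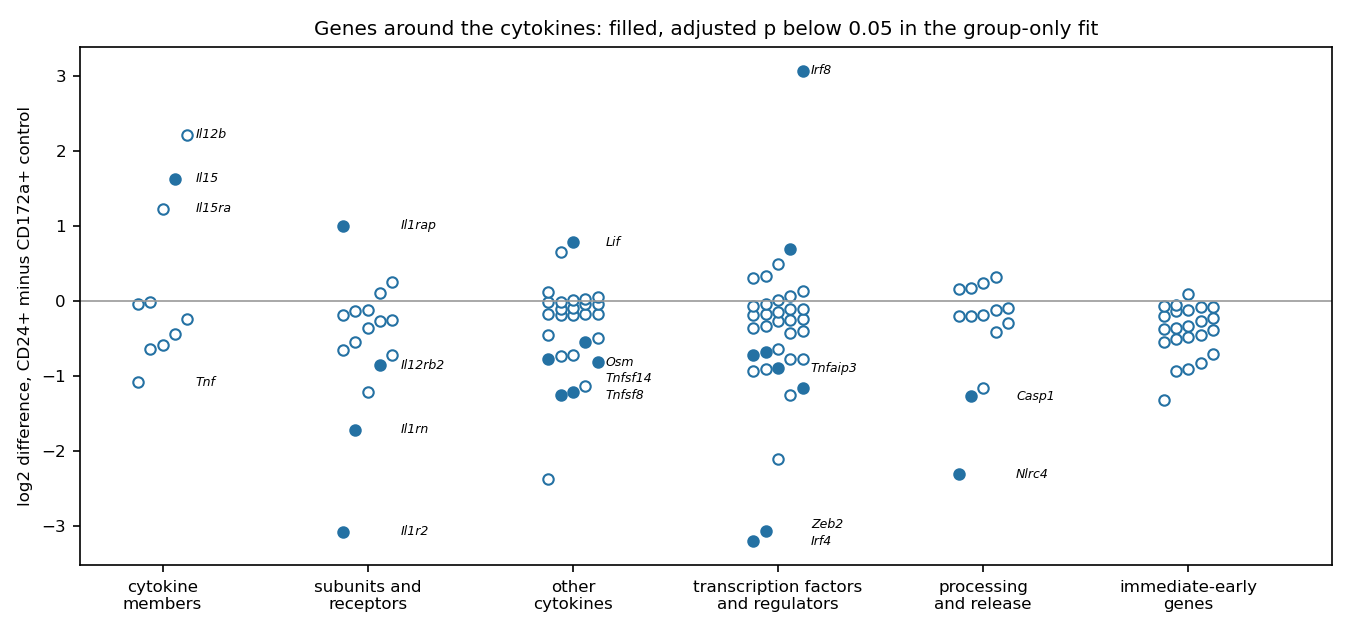
Log2 difference of each measured gene between control CD24+ and control CD172a+ cDCs, first-named group minus second, with a dot for each gene. Columns are the pathway lists, with the cytokine genes and the immediate-early genes beside them. Filled dots passed the test (adjusted p below 0.05). In each pathway list more of the genes that passed were lower than higher in control CD24+ cDCs.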

How the data were processed

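Log2 expression values per probe set were used as deposited. The authors made them with RMA, per the submitters' processing notes, which corrects background, quantile-normalises arrays and summarises probes. The software version, probe filters and genome build of the values are not given in the sources used here. Groups and replicate numbers came from the titles. Array medians lay between 5.45 and 5.52. No pair of arrays shared more than 5.20% identical values.

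Of 30177 probe sets, 21789 carried 1 gene symbol in the platform annotation, 1621 several and 6767 none. Genes with more than 1 probe set (999 of 19938) were represented by the one with the highest mean. limma 3.58.1 in R 4.3.3 was fitted over all 11 arrays with group as factor (8 residual degrees of freedom), with Benjamini-Hochberg adjustment over all 19938 genes, two-sided, threshold 0.05. Alternatives comprised blocks for array set and replicate number, each array left out, each set alone, only the groups compared, quantile normalization, trended and robust variances and a minimum mean of 5. The fit was tested on simulated data. Plots used matplotlib 3.10.9 under Python 3.11.15, pandas 2.3.3 and numpy 2.4.6.

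The members and gene lists were chosen with earlier results of these data known. All 10 members and Zeb2 were named, plus up to 4 genes per list and comparison with the smallest p among those that passed, and genes most like a member with a difference of at least 1 between the control groups. Ebi3 was named outside that rule as the partner of Il27.

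Same-numbered arrays of the CD172a+ groups deviated together across genes (r from 0.442 to 0.680 in 4 pairs, all above 0.1). Pairs of these groups with other numbers within an array set did so as well (0.496 to 0.699). Same-numbered pairs with control CD24+ arrays went down to -0.445, between replicate 2 of control CD24+ and of control CD172a+ cDCs. Those 2 arrays lay in different array sets, so the replicate number does not follow the sets between these groups.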

Additional observations from a re-analysis of the deposited data

Results flagged for a closer look

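In groups of 4 arrays, an array was singled out where its gap to the nearest other array exceeded the 95% critical share of the group's range (Dixon's test). Of 20 such groups of members, 2 were singled out, and chance gives about 1 in 20. Il23a on the labelled as Zeb2-deficient replicate 3 had a log2 value of 4.19, below the other 3 arrays of its group, with a gap of 0.957 of the range. Il27 on control CD172a+ replicate 2 had 6.44, below the other 3, with a gap of 0.848 of the range.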

How the results depend on the processing

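No member passed between CD172a+ cDCs labelled as Zeb2-deficient and control CD172a+ cDCs under any alternative. Over the 30 member results, 801 values kept their direction and side of the threshold, 5 lost the call, 107 gained one and 41 changed sign, the sign changes with 0 calls. The replicate block gave 26 genes over all for the labelled as Zeb2-deficient against control CD172a+ comparison (10 in the main fit), and for control CD24+ against control CD172a+ cDCs 2 members and 762 genes, with Il12a at 0.0095 and Il6 at 0.0010, and changed no member call in the first comparison; no label states such a pairing. The array set as a block gave 29, 3080 and 3641 genes over all in the 3 comparisons, and 5 members in each of the last 2; with only the 2 groups compared it gave 45, 2348 and 3761 genes, with 3 and 5 members. Only the 2 groups without a block gave 5 genes in the first comparison.

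Within the first set, the first comparison had 0 genes past the threshold, with Il27 at -0.021, Il15 at -0.037 and Il10 at -0.25; control CD24+ against control CD172a+ had 2 members, with Il12a at 0.12, Il27 at 0.019 and Il6 at 0.23; and labelled as Zeb2-deficient against control CD24+ had Il27 at -0.040. Within the second set, Il15ra was -0.082 and Il1b 0.25 in the first comparison, 5 members passed in the second, and 4 passed in the third, with Il6 at 0.21. Trended and robust variances gave 2 members in the second comparison, a mean of at least 5 gave 3, and quantile normalization gave 2, with Il12a at 0.0079, Il1b at 0.0042 in the first comparison and Il23a at -0.014 in the third. The cause was not tested.

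Leaving out each array, with and without the set as a block, gave 7 to 72, 874 to 3038 and 985 to 4054 genes over all, and 1 to 6 and 1 to 5 members in the last 2 comparisons. The first comparison ranged over -0.88 to -0.25 for Il12b, -1.79 to -0.60 for Il6, -0.15 to 0.35 for Il15, -0.086 to 0.23 for Il15ra, -0.26 to 0.076 for Il1b, -0.25 to 0.070 for Tnf and -0.062 to 0.26 for Il10. The second ranged over -0.068 to 0.020 for Il12a and -1.62 to 0.0010 for Il6, and the third over -0.012 to 0.14 for Il23a and -1.02 to 0.38 for Il6. The block fits with an array left out or only 2 groups were chosen after seeing the data.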

Other observations

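The genes most like Il15 over the 11 arrays, by the root mean square difference of values centred on each gene's mean, were Mindy3 (0.288), Creg1 (0.292) and Mctp1 (0.307), beside a root mean square of 0.788 for Il15 about its own mean. Mindy3 averaged 7.40 in CD172a+ cDCs labelled as Zeb2-deficient, 8.87 in control CD24+ and 7.35 in control CD172a+ cDCs on the log2 scale. Creg1 averaged 8.13, 9.50 and 8.01 in these groups, and Mctp1 7.38, 9.02 and 7.28. Genes were ranked over the same arrays that define the likeness, so the order is a description.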
